A study of Zea mays with 18 samples.

Results

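The 150 genes described here are those whose RNA stood highest in 3 and 4 day maize endosperm against every earlier stage. Of the 38300 genes measured, 11507 reached at least 5 CPM, the normalised reads of a gene relative to library size, in all 6 endosperm libraries of 3 and 4 days after pollination (DAP). Members were chosen by a score from these endosperm values, the lower of the 3 and 4 DAP means plus 1, divided by the highest of the 0, 1 and 2 DAP means plus 1. The 150 highest scores make up the set, after GRMZM2G016439 (HP1), GRMZM2G451604 (HP3) and GRMZM2G129261 (Nkd1) were left out by name. Because the score used all endosperm libraries, their rise to 3 DAP is described below without a test.

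The endosperm arises from the fertilized central cell, whose nuclei at first divide without walls between them. Cell walls then enclose the nuclei, and the tissue parts into a transfer layer that takes up sugars from the mother plant, an embryo-surrounding region, an aleurone and a starchy centre. Wall building, sugar entry and membrane synthesis are activities for which these first cells are known.

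RNA came from the maize inbred B73 grown in a greenhouse. The central cell of unfertilized ears (0 DAP) was compared with endosperm of self-pollinated ears taken daily from 1 to 4 DAP. Whole embryos of 4 DAP made up the last of 6 groups, and each group held 3 libraries. Sections were taken by laser capture, and each replicate pooled kernels of 1 ear. PicoPure RNA was copied with oligo(dT) and random primers and amplified with the Nugen Ovation kit, so reads are not independent molecules and any limit from a read count covers counting error only. The RNA of 0 to 2 DAP and of the embryo was quantified by its 18S band, whereas the labels do not say this of the 3 and 4 DAP endosperm. This difference falls between the stages that the score compares, and the method and the stage cannot be told apart. Libraries held 7688120 to 124078873 reads, and the shallowest were replicate 1 at 1 DAP and replicate 1 of the embryo.

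Most of the 150 genes were raised from a measurable level and few were switched on from nothing. Only 3 of them, GRMZM2G392885, GRMZM2G148188 and GRMZM2G446999, stayed below 1 CPM in each library of 0, 1 and 2 DAP. The highest early mean was below 1 CPM for 4 genes, from 1 to below 5 CPM for 41 and at least 5 CPM for 105, of which 38 reached 20 CPM. The score ran from 1.97 to 21.09 with a median of 2.55 and quartiles of 2.12 and 3.24. It was at least 10 for 5 genes, at least 5 for 16 and at least 3 for 48. The label of a gene switched on at 3 DAP therefore describes few members, and several of the highest scores, kin2 and frk2 among them, belong to genes already measured before 3 DAP. In bulk tissue, more cells that use a gene and more RNA of it per cell cannot be told apart.

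The median over the 150 group means was 4.93, 5.61 and 6.04 CPM in the first 3 stages, 28.3 CPM at 3 DAP and then 42.3 CPM. In the 4 DAP embryo this median was 17.0 CPM. The 2 and 3 DAP libraries did not overlap for 143 members, against a background of 11.1% of the 31783 genes tested with 3 DAP higher, and nothing is read from that share because the rule used these libraries. For 134 members the lowest 3 DAP library stood above the highest library of 0, 1 and 2 DAP. The highest early mean fell at 0 DAP for 34 members, at 1 DAP for 41 and at 2 DAP for 75.

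**Figure D1:**
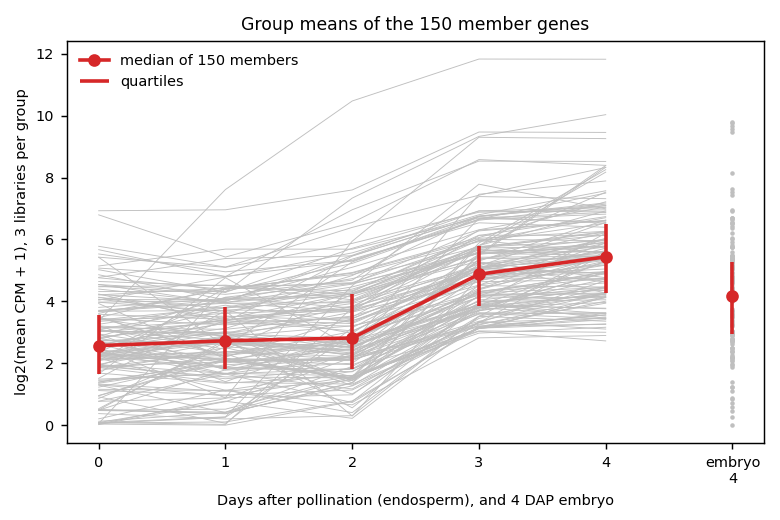
Mean level of each of the 150 members as log2(mean CPM + 1) by group, with grey lines for single genes in endosperm, grey points for the embryo, and red points and bars for the median and quartiles over genes. The median stays between 4.93 and 6.04 CPM through 2 DAP and is 28.3 CPM at 3 DAP and 42.3 CPM at 4 DAP.

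The summed level of the members was 1326 to 1744 CPM in the 0 DAP libraries and 1218 to 2024 CPM at 1 DAP. It was 2560 to 5203 CPM at 2 DAP, 10288 to 14052 CPM at 3 DAP and 11733 to 17933 CPM at 4 DAP. The embryo libraries lay between those stages, at 6301 to 9582 CPM. As a share of all reads, the members took 0.995% to 1.30% at 3 DAP and 1.35% to 1.97% at 4 DAP. GRMZM2G469380 alone supplied much of these sums. Its level was 4.94, 9.86 and 13.2 CPM in the 0 DAP libraries, 79.6, 190 and 314 CPM at 1 DAP, and 772, 1396 and 2088 at 2 DAP. It then stood at 2335, 4173 and 4386 CPM at 3 DAP and at 1883, 4548 and 4419 CPM at 4 DAP. Each stage of this gene up to 3 DAP lay above the one before it, with no overlap of libraries.

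The gene with the highest score was kin2. It measured 6.72, 7.50 and 7.80 CPM at 0 DAP, 9.15, 4.35 and 5.83 CPM at 1 DAP, and 1.89, 6.20 and 7.56 at 2 DAP. At 3 DAP its libraries held 165, 131 and 229 CPM, and at 4 DAP 313, 185 and 210 CPM. The libraries before 3 DAP were all under 10 CPM and those from 3 DAP on were all above 100, with no library between. In the embryo kin2 stood at 209, 164 and 217 CPM, which overlapped the 4 DAP endosperm.

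The next 4 scores, 17.49 to 20.06, belonged to gene models whose values run closely together. GRMZM2G000679 and GRMZM2G069820 differed by at most 0.13 on the log2(CPM + 1) scale in any of the 18 libraries, and GRMZM2G069698 and GRMZM5G815477 by at most 0.21. Between those pairs the largest difference was 0.55. How reads that match several places were counted is not given in the sources used here, so the 4 may share reads and are not 4 independent cases. GRMZM2G069698 measured 0, 1.05 and 0.146 CPM at 0 DAP, 0.669, 0.476 and 0.145 CPM at 1 DAP, and 0.153, 2.20 and 3.48 at 2 DAP. It held 43.2, 67.9 and 63.1 CPM at 3 DAP. At 4 DAP replicate 1 stayed near that level, at 64.0 CPM, while replicates 2 and 3 held 496 and 352 CPM. The embryo libraries were higher still for replicates 2 and 3, at 1059 and 877 CPM, with 475 CPM in replicate 1.

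Other members also had close counterparts. GRMZM5G861300 and GRMZM2G002614 differed by at most 0.02 on the log2 scale over all libraries, GRMZM2G122740 and GRMZM2G088793 by 0.07, GRMZM2G447447 and GRMZM2G145332 by 0.16, and GRMZM2G404137 and GRMZM2G472614 by 0.18. GRMZM2G122740 and GRMZM2G088793 match 1 RefSeq entry and are counted here as 2 members. A further 3 pairs, GRMZM2G446999 with GRMZM2G145950, GRMZM2G027462 with GRMZM2G469551 and GRMZM2G009995 with GRMZM2G019586, lie next to each other in the RefSeq gene order. At 3 DAP the mean was 9.19 ± 3.27 CPM for GRMZM2G446999 and 10.4 ± 4.21 CPM for GRMZM2G145950, and at 2 DAP it was 0.165 ± 0.241 and 0.324 ± 0.486 CPM (SD, n = 3 each).

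A group of members already stood higher at 2 DAP than before. For 7 members the 2 DAP mean plus 1 was at least 3 times the higher of the 0 and 1 DAP means plus 1, and GRMZM2G166234, GRMZM2G116386 and GRMZM2G090264 were among them. GRMZM2G166234 held 0.388, 0.557 and 1.17 CPM at 0 DAP, 1.78, 0.187 and 0.544 CPM at 1 DAP, and 20.8, 28.0 and 132 CPM at 2 DAP. Its 3 DAP libraries stood at 470, 698 and 719 CPM and those of 4 DAP at 462, 676 and 692 CPM. The 3 and 4 DAP libraries of this gene overlapped, and each was above every earlier library.

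GRMZM2G116386 lies 3 places from GRMZM2G166234 in the RefSeq gene order. It held 5.24, 9.32 and 50.5 CPM at 2 DAP, 188, 231 and 239 CPM at 3 DAP, and 110, 145 and 123 CPM at 4 DAP. Before 2 DAP no library of it reached 0.5 CPM. GRMZM2G090264 held 4.23, 10.1 and 24.2 CPM at 2 DAP, 34.3, 105 and 94.1 CPM at 3 DAP, and 108, 120 and 63.3 CPM at 4 DAP. In all 3 genes replicate 3 was the highest of the 2 DAP libraries.

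**Figure D2:**
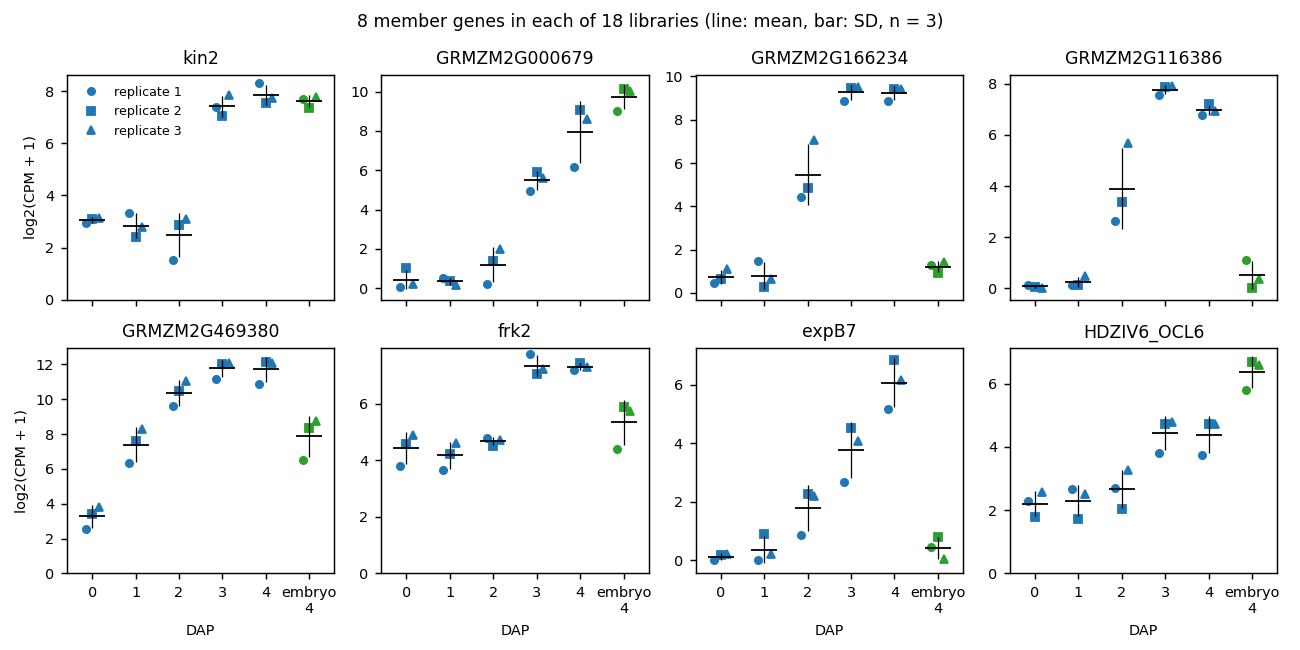
Level of 8 members as log2(CPM + 1) in each of the 18 libraries, with a marker shape for each replicate, a line for the mean and a bar for the SD of 3 libraries, and the embryo in green. kin2 steps up between 2 and 3 DAP, GRMZM2G166234 and GRMZM2G116386 are near 0 in the embryo, and HDZIV6_OCL6 is higher in the embryo than in any endosperm library.

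That position of replicate 3 at 2 DAP held for most of the set. It was the highest library of its group for 115 of the 150 members (76.7%), against 35.5% of the other 11354 genes that met the 5 CPM minimum. The score read all these endosperm libraries, so the contrasts of members with other genes in endosperm are a description only. The members' median log2 difference from the mean of the other two 2 DAP libraries was 0.50, and that of the other genes was 0.04. Replicate 1 at 2 DAP stood at -0.37 for the members and at 0.03 for the other genes. Replicate 3 was also the highest library for 81 members at 0 DAP (54.0%), 80 at 1 DAP (53.3%) and 83 at 3 DAP (55.3%), against 29.1%, 35.4% and 29.7% of the other genes. At 4 DAP the order was the other way, with replicate 3 highest for 34 members (22.7%) against 36.7% of the other genes, and in the embryo the shares were 33.3% and 35.5%. The summed level of the cytokinin relay list was also highest in that library, at 496 CPM against 219 in replicate 1 and 211 in replicate 2. That list includes HP1 and HP3, which are no members only because they were left out by name. The ER protein folding sum was highest there too, at 2503 against 1150 and 1223 CPM. So was the embryo sac sum, at 1320 against 636 and 657 CPM. In that list the 2 DAP means were 800 and 71.0 CPM for EBE-2 and EBE-1. They were 0.0250, 0.0244 and 0.0228 CPM for es1, es2 and es4. Replicate 3 also had the highest 2 DAP sum of nucellus and maternal genes, at 173 against 76.2 and 154 CPM. The embryo sum there was 126 against 88.4 and 87.6 CPM, and the embryo-surrounding sum was highest at 0.658 CPM. The aleurone, starch and sucrose, storage protein and regulator, sugar transport and transfer layer sums were not highest in replicate 3 at 2 DAP. Without replicate 3 at 2 DAP 135 of the 150 members were chosen again.

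**Figure D3:**
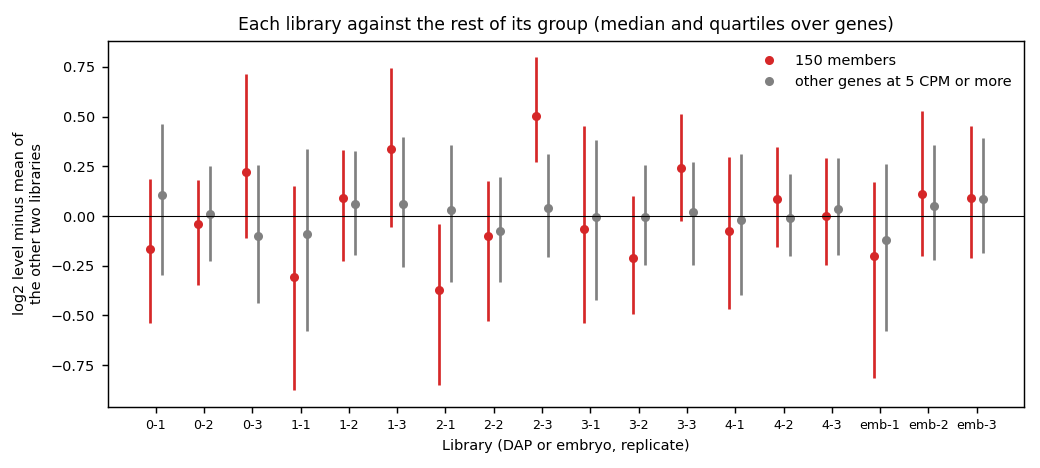
For each library, the median and quartiles over genes of its log2 level minus the mean of the other two libraries of its group, in red for the 150 members and grey for the other 11354 genes at 5 CPM or more. Replicate 3 at 2 DAP stands at 0.50 for the members and 0.04 for the other genes.

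Among the 150 members, 103 matched a RefSeq entry and 16 carried a gene name, so function can be described for few. Those of sugar use and cell walls included 3 genes. frk2, a fructokinase, which phosphorylates fructose for entry into metabolism, measured 26.9, 22.0 and 25.2 CPM at 2 DAP and 216, 132 and 150 CPM at 3 DAP. exg1, an exoglucanase that trims wall glucans, measured 168, 156 and 254 CPM at 2 DAP and 689, 562 and 873 CPM at 3 DAP. The 4 DAP libraries of both overlapped those of 3 DAP, and frk2 held 146, 174 and 155 CPM. expB7, a beta-expansin, a class of proteins that loosens walls, took a slower course, with 0.822, 3.81 and 3.55 CPM at 2 DAP, 5.42, 21.6 and 16.0 CPM at 3 DAP, and 35.0, 112 and 71.0 at 4 DAP. Its 3 and 4 DAP libraries did not overlap.

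Genes of lipid, inositol and isoprenoid synthesis were present as single members. Agpat4/pls1, an acyltransferase of phospholipid synthesis, measured 55.3, 50.9 and 54.0 CPM at 3 DAP, where the 2 DAP libraries held 14.7, 17.7 and 22.5. INO1/lpa1, which makes inositol phosphate from glucose 6-phosphate, measured 11.7, 14.1 and 19.6 CPM at 2 DAP and 45.1, 44.2 and 65.0 CPM at 3 DAP. fps/fps1, a farnesyl pyrophosphate synthase that feeds sterol synthesis, measured 31.9, 28.3 and 39.6 CPM at 2 DAP and 70.3, 73.7 and 91.1 CPM at 3 DAP. In each of these 3 genes the libraries of both stages were apart. bx8, a glucosyltransferase of the benzoxazinoid defence compounds, measured 4.17, 6.77 and 8.49 CPM at 2 DAP and 22.0, 27.3 and 28.0 CPM at 3 DAP. thi1-2/thi2, of thiamine synthesis, had its early levels at 0 and 2 DAP, with means of 41.9 and 37.6 CPM, and held 79.4, 108 and 129 CPM at 3 DAP.

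Regulators and structural genes made up the rest of the named members. rld2, a homeodomain leucine zipper gene, measured 30.4, 30.0 and 48.8 CPM at 2 DAP and 94.1, 87.7 and 116 CPM at 3 DAP. HDZIV6_OCL6, of the homeodomain leucine zipper class of the outer cell layers, measured 5.49, 3.13 and 8.67 CPM at 2 DAP and 13.0, 25.6 and 26.6 CPM at 3 DAP. tua6/TUBA6, an alpha-tubulin, a subunit of microtubules, measured 29.7, 30.3 and 55.2 CPM at 2 DAP and 84.3, 86.0 and 121 CPM at 3 DAP. In all 3 the lowest 3 DAP library stood above the highest 2 DAP library. HD6, a name that in rice belongs to a casein kinase 2 subunit, had a mean of 51.5 ± 3.56 CPM at 2 DAP and of 120 ± 34.8 CPM at 3 DAP (SD, n = 3 each). serk1, a receptor kinase of the somatic embryogenesis class, had 3.38 ± 0.881 and 8.04 ± 0.597 CPM at these stages. ALF7, of the Alfin-like class, held 4.22, 5.00 and 6.51 CPM at 2 DAP and 10.1, 11.5 and 14.3 CPM at 3 DAP. The model GRMZM2G088064, named alt, matched more than 1 RefSeq entry, so its name is uncertain, and it held 39.0 ± 8.93 and 99.9 ± 27.5 CPM.

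From 3 to 4 DAP a few members rose further, among them the wall gene expB7, and none passed the test as lower. The rule read both stages but not the direction between them. With limma on log2(CPM + 1) over all 18 libraries and Benjamini-Hochberg adjustment at 0.05, 12 of the 150 members (8%) were higher at 4 DAP and 0 were lower. Over all 31783 genes tested, 1.67% were higher and 0.818% lower, and among the 11504 genes that met the 5 CPM minimum 0.834% and 1.45%. The median log2 change was 0.42 in the members, -0.01 over all genes and -0.11 at the 5 CPM minimum, and 117 members had a change above 0. At an unadjusted p under 0.05, limma gave 41 members higher and 1 lower, and neither edgeR nor DESeq2 called a member lower (0 each). All 4 DAP libraries stood above all 3 DAP libraries for 48 members (32%, with 11.8% of all genes), and below them for 2 members (1.33%, with 11.2%). Among genes at the 5 CPM minimum these shares were 8.42% and 17.0%.

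The firmest of these changes was GRMZM2G386155. It held 48.5, 51.5 and 64.1 CPM at 3 DAP and 158, 206 and 185 CPM at 4 DAP, with no overlap. Its log2 change was 1.73 (SE 0.23, limma adjusted p = 0.000165), and it was called in each of the 17 alternatives, with adjusted p from 1.26e-10 to 0.0138. No other of the 12 was called in all of them. expB7, given above, had a log2 change of 2.30 (SE 0.48, limma adjusted p = 0.0129), and the alternatives gave 0.000211 to 0.297, with edgeR at 0.216. GRMZM5G850455 held 9.92, 6.32 and 10.5 CPM at 3 DAP and 40.5, 58.9 and 38.9 CPM at 4 DAP, a log2 change of 2.25 (SE 0.46, limma adjusted p = 0.0112), with 0.000121 to 0.0938 over the alternatives. GRMZM2G447447 and GRMZM2G145332, which may share reads, changed by 1.62 and 1.61, and GRMZM2G564805 by 1.35. GRMZM2G007909, GRMZM2G163912, GRMZM2G146472 and GRMZM2G045404 changed by 1.32, 1.15, 1.08 and 0.90.

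GRMZM2G000679 and GRMZM2G069820 had the highest log2 changes, both 2.46 (SE 0.59 and 0.58, limma adjusted p = 0.0322 and 0.0293), and each was called in 8 of the 17 alternatives. GRMZM2G000679 held 29.9, 58.5 and 47.5 CPM at 3 DAP and 69.8, 539 and 392 CPM at 4 DAP, so replicate 1 at 4 DAP stood far below the others. The summed level of 5 genes of the embryo-surrounding region had the same order of libraries at 4 DAP, with 42.5, 255 and 179 CPM in replicates 1, 2 and 3, and was 473, 890 and 864 CPM in the embryo. That order was not particular to these genes, since the summed nucellus and maternal genes held 57.0, 239 and 212 CPM in replicates 1, 2 and 3 at 4 DAP. The cytokinin relay sum was also lowest in replicate 1, at 440, 1108 and 1608 CPM, whereas the aleurone and the starch and sucrose sums were highest there. The part of any neighbouring cells in the level of GRMZM2G000679 was not tested.

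Leaving out 1 library moved the number of members called higher at 4 DAP. Of the 4 DAP libraries, replicate 2 left 1 call when omitted and replicate 3 left 6. Of the 3 DAP libraries, replicate 2 left 2 calls and replicate 1 left 6. With the replicate number as a block, 31 members were called higher. Of all calls 67.2% were higher at 4 DAP, and plain CPM, which moves the median of all genes by 0.15 on the log2 scale, made this 87.9%, DESeq2 54.8%, the 5 CPM filter 54.7%, leaving out all replicate 1 libraries 48.3% and the block 42.0%.

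The gene with the lowest change, GRMZM2G003509, was picked out after its values were seen. It held 25.3, 46.9 and 40.3 CPM at 3 DAP and 12.1, 17.0 and 25.6 CPM at 4 DAP, a log2 change of -1.02 that did not pass (limma adjusted p = 0.228). GRMZM2G116386 was next at -0.80 (limma adjusted p = 0.571), although its 3 DAP libraries, all above 180 CPM, lay clear of its 4 DAP libraries.

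**Figure D4:**
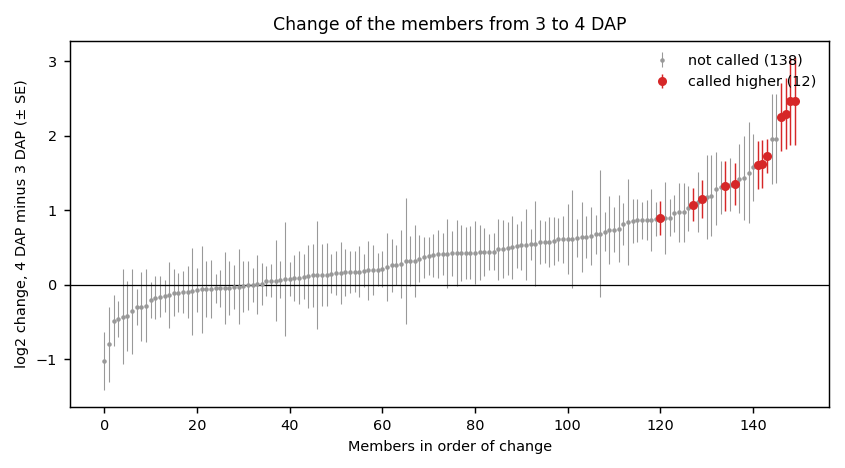
log2 change from 3 to 4 DAP of each of the 150 members with its SE from limma, in order of size, with the 12 called higher in red. The changes run from -1.02 to 2.46, and 117 of them are above 0.

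Against the embryo of the same age, most members were higher in the endosperm. The rule did not read the embryo, but it chose the 4 DAP endosperm level to be high, so the shares that follow are partly set by that choice. In limma, 86 members (57.3%) were lower in the embryo and 13 (8.67%) higher. Over all genes 11.1% were lower and 12.4% higher, and at the 5 CPM minimum 15.4% and 6.95%. The median log2 difference, embryo minus endosperm, was -1.06 in the members, -0.01 over all genes and -0.16 at the 5 CPM minimum. The members' value was the same with GRMZM2G148188, which had no embryo read, set to 3 reads in each library. All embryo libraries stood below all endosperm libraries for 100 members (66.7%, with 19.7% of all genes), and above them for 11 (7.33%, with 19.2%). At the 5 CPM minimum these shares were 26.3% and 14.1%. Of the 99 members called, 65 were called in each of the 17 alternatives.

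Few members were missing from the embryo. Only GRMZM2G148188, GRMZM2G090264 and expB7 were below 1 CPM in all 3 embryo libraries (2%, with 0.139% at the 5 CPM minimum), whereas 107 members reached 5 CPM in all 3 (71.3%, with 88.8%). The embryo mean was above the highest mean of 0 to 2 DAP for 103 members (68.7%, with 22.1%), although those early levels were chosen to be low. It was above every endosperm mean for 28 of the 150 members, and for 1714 of the 11504 genes at the 5 CPM minimum.

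GRMZM2G166234 had the largest difference of the set. It held 1.42, 0.891 and 1.71 CPM in the embryo, where each 4 DAP endosperm library was above 460 CPM, a log2 difference of -8.02 (SE 0.49, limma adjusted p = 1.6e-09). Its neighbour GRMZM2G116386 held 1.15, 0.0248 and 0.298 CPM in the embryo, a difference of -6.47 (limma adjusted p = 3.5e-08). Both were thus near 0 in the embryo and among the highest members in endosperm. GRMZM2G090264 held 0.533, 0.0371 and 0 CPM in the embryo, and its log2 difference was -6.34 (limma adjusted p = 1.54e-08). GRMZM2G148188 had no read in any embryo library, where 3 reads would be 0.266, 0.0371 and 0.0595 CPM, and held 7.42, 11.3 and 11.2 CPM in the 4 DAP endosperm.

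Named members were also lower in the embryo. expB7 measured 0.355, 0.731 and 0.0198 CPM there, a log2 difference of -5.64 (limma adjusted p = 1.04e-07). bx8 measured 0.355, 1.02 and 2.70 CPM, against 22.4, 37.0 and 30.9 CPM in endosperm, a difference of -3.82 (limma adjusted p = 1.23e-06). fps/fps1 measured 10.2, 10.3 and 15.1 CPM, against 112, 138 and 145 CPM, a difference of -3.38 (limma adjusted p = 1.9e-07). The embryo and endosperm libraries of these 3 genes were far apart. thi1-2/thi2 differed by -3.04, exg1 by -2.60, alt by -2.59, frk2 by -1.97, INO1/lpa1 by -1.64, tua6/TUBA6 by -1.27 and serk1 by -1.27, and each was called. Agpat4/pls1 (-0.70), HD6 (-0.37), kin2 (-0.24), rld2 (-0.22) and ALF7 (0.07) did not pass.

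Of the genes with no name, GRMZM2G118403 differed by -4.38, GRMZM2G046532 by -4.35, AC197705.4_FG001 by -3.88 and GRMZM2G469380 by -3.84. GRMZM2G046532 held 425, 1494 and 1215 CPM in the 4 DAP endosperm and 16.7, 82.9 and 60.1 CPM in the embryo. Replicate 1 was the lowest library of this gene in both tissues.

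HDZIV6_OCL6 was the named member that was higher in the embryo. It held 12.3, 25.3 and 25.5 CPM in the 4 DAP endosperm and 54.4, 103 and 96.2 CPM in the embryo, with no overlap. Its log2 difference was 1.97 (SE 0.39, limma adjusted p = 0.00121), and it was called in each of the 17 alternatives. The embryo marker list, 13 genes that include HDZIV6_OCL6, summed to 67.7 to 122 CPM in the 3 DAP endosperm, 63.9 to 112 CPM at 4 DAP and 175 to 374 CPM in the embryo. Its highest means in the 4 DAP endosperm were ocl4 and ocl1, 46.1 and 22.2 CPM, with 65.3 and 26.9 CPM in the embryo. In contrast, lec1, vp1 and wox9B had means of 0.0351, 0.285 and 0.0239 CPM in that endosperm. Their embryo means were 17.7, 29.9 and 20.8 CPM. Whether embryo RNA had a part in the endosperm level of HDZIV6_OCL6 was not tested.

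GRMZM2G392885 held 5.25 CPM in replicate 1 of the 4 DAP endosperm and 66.3 CPM or more in the others, and it held 59.0, 215 and 241 CPM in the embryo. Replicate 1 was low in both tissues, as it was for the summed embryo-surrounding genes and the summed nucellus and maternal genes, and the tissues overlapped. Its log2 difference was 2.22 (SE 0.68, limma adjusted p = 0.0241), and 11 of the 17 alternatives called it, with adjusted p from 0.000231 to 0.159, edgeR at 0.109 and DESeq2 at 0.0666 not calling it. It shares its RefSeq entry with GRMZM2G358991, which is no member and had means of 7.19, 32.7 and 119 CPM at 3 DAP, 4 DAP and in the embryo. The 4 close models led by GRMZM2G069698 differed by 1.76 to 1.78 with limma adjusted p of 0.0348 to 0.0417, and neither edgeR (0.265 to 0.336) nor DESeq2 (0.305 to 0.418) called them. GRMZM2G012224 differed by 1.72, GRMZM2G124270 by 1.24 and GRMZM2G146206 by 1.07. GRMZM2G146206 held 331, 351 and 323 CPM in endosperm and 686, 814 and 625 CPM in the embryo, so its higher embryo level was alike in all replicates. The count of 13 fell to 6 without replicate 1 of the 4 DAP endosperm and also to 6 without either replicate 2 or replicate 3 of the embryo, and edgeR gave 5.

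**Figure D5:**
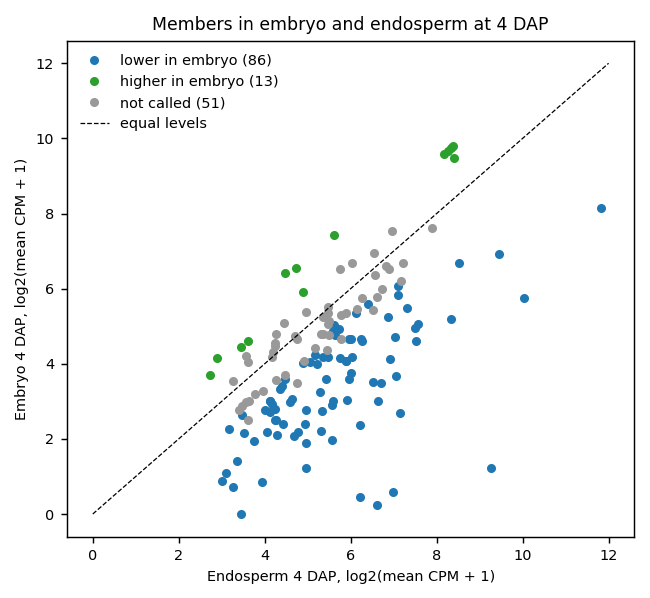
Mean level of the 150 members in the embryo against the 4 DAP endosperm, both as log2(mean CPM + 1), with the limma call in colour and a dashed line of equal levels. Below the line lie the 86 members called lower in the embryo, and the 13 called higher include a tight cluster of close gene models.

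Pathway genes known from endosperm differentiation were looked at beside the members. None (0) of the 108 genes in 8 pathway lists belongs to the 150, a count fixed in part by leaving out HP1, HP3 and Nkd1 by name. Those 3 rose from 2 to 3 DAP as the members did. Their means at 2, 3 and 4 DAP were 98.6, 1380 and 721 CPM for HP1, 22.1, 419 and 164 CPM for HP3, and below 1, 8.56 and 36.95 CPM for Nkd1. From 3 to 4 DAP the members' median rose, as did Nkd1, whereas HP1 and HP3 had lower means, and neither fall was called in limma. From 2 to 3 DAP, where 1.89% of all genes were higher and 0.746% lower in limma, 8 of the 102 list genes tested were higher and 2 lower. HP1, HP3 and Nkd1 are among the 8 and were left out of the set by name only. The score would have read the same libraries for them, so their calls are a description only. In the cytokinin relay, phosphotransfer proteins pass the hormone signal on. Its list also holds cytokinin genes outside the relay, such as IPT1 and CKX10. Of its 26 tested genes 2 were higher, HP1 by 4.27 and HP3 by 4.84 on the log2 scale. Of 27 genes in the list for protein folding in the endoplasmic reticulum 3 were higher, pdi2 by 2.02, pdi by 1.65 and DER2.2 by 1.40. That list was matched by symbol only, and its CNX5 models may not be folding genes. Of 6 aleurone genes 2 were higher, Nkd1 by 2.63 and vpp1 by 2.30. Among 15 starch and sucrose genes Agp2 was higher by 1.67. The sucrose synthase sh1 was lower by 2.29 and GRMZM2G152908 by 2.28. For vpp1, Agp2, pdi2, pdi and DER2.2 the rise followed a fall, with 2 DAP means below those of 0 and 1 DAP. Means at 0, 2 and 3 DAP were 20.5, 3.76 and 23.2 CPM for vpp1 and 18.1, 7.39 and 31.4 CPM for pdi2. They were 353, 175 and 473 CPM for pdi and 3.89, 1.24 and 4.72 CPM for DER2.2. Agp2 fell from 42.7 to 5.54 CPM and at 3 DAP stayed below its 0 DAP mean. HP1, HP3 and Nkd1 had their highest early mean at 2 DAP. In limma 0 of 6 sugar transport genes were called. Of the list of storage proteins and their regulators, pbf1 among them, 0 of 2 tested genes were called. The 8 became 5 without replicate 1 at either stage and 15 without replicate 3 at 2 DAP, and 17 with the replicate block.

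The transfer layer genes came later than the members. All 15 had means below 1 CPM in each group through 3 DAP, with 0 called from 2 to 3 DAP, and all 15 were called higher at 4 DAP, where their summed level was 670 to 2499 CPM. Of the 30 genes of all lists called higher at 4 DAP, 10 were called without replicate 1, 10 without replicate 2 and 13 without replicate 3 of that stage. In the embryo libraries that sum was 0.607 to 2.13 CPM. The 5 genes of the embryo-surrounding region summed to 4.57 to 7.34 CPM at 3 DAP, and 4 of them were called higher at 4 DAP and 4 higher in the embryo than in endosperm. Markers of tissue beside the endosperm were measurable at 3 DAP, with 82.0 to 243 CPM summed over 10 genes of nucellus and maternal tissue, and 76.2 to 173 CPM at 2 DAP. The highest 3 DAP means among them were cystatin8, GRMZM2G438551 and cystatin4, at 82.5, 52.3 and 25.7 CPM, and cystatin8 had 114 CPM in the embryo. From 0 to 3 DAP the means of zag2, ZAG1 and cystatin6 fell from 79.7, 1.64 and 44.7 CPM to 5.68, 0.0450 and 1.23 CPM. None (0) of those 10 was called between 2 and 3 DAP. Their part in the members' levels was not tested.

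The lower end of the set is set by the number 150 and by no gap in the score. Just inside it were GRMZM2G412937, GRMZM2G043350 and GRMZM2G051917, each with a score of 1.97. GRMZM2G051917 had a mean of 22.9 CPM at 2 DAP, 46.1 at 3 DAP and 47.7 at 4 DAP. Just outside were GRMZM2G013324 and GRMZM2G049322, with scores of 1.96, and GRMZM2G305007, with 1.95. GRMZM2G049322 had a mean of 5.79 CPM at 2 DAP and 12.8 CPM at 3 DAP, a course like that of the last members.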

How the data were processed

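RNA-seq values of 18 libraries, 3 in each of 6 groups, were used. The authors deposited 1 table of normalised CPM (a signal with column totals of 850346 to 1241738). Per the submitters' processing notes, the tools included Trimmomatic, TopHat2 2.0.9, bedtools 2.17.0 and edgeR, with the build B73 RefGen_v3; the handling of strand is not given in the sources used here. All deposited CPM values were whole multiples of 1 read within 0.001 reads, so 100% of values gave read counts for the count tests.

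Genes at 1 CPM or more in at least 3 libraries (31783) were tested in limma 3.58.1 (R 4.3.3), trended, on log2(CPM + 1), with 1 mean per group and Benjamini-Hochberg adjustment at 0.05. A fold change on this scale understates that of low genes. edgeR 4.0.16 and DESeq2 1.42.0 on the recovered reads were alternatives, edgeR calling 649 and DESeq2 1574 genes from 3 to 4 DAP, where limma called 792. Other alternatives changed the pseudocount, filter, scaling, libraries and replicate block. The code was tested on simulated data, where a first rule on the share of changed genes recovered was missed and was replaced, after that result was seen, by a rule on false calls, size and direction; the fit was not changed.

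The replicate numbers were checked for pairing: deviations from group means of libraries with the same number correlated at 0.319 to 0.696 over the 3 comparisons. The highest correlation with another number ran from -0.5 to 0.389, and from 3 to 4 DAP replicate 2 correlated slightly better with another number (0.36) than with its own (0.352). This hint of pairing comes from the data only, since the labels name 1 ear per replicate and no shared ear. The reported fit has no block, and blocked values are given beside it. The labels do not say that replicates were grown apart, beyond separate ears.

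The members and gene lists were chosen with earlier results of these data known. Named are the 15 highest scores, members with a gene name, the 10 highest at 3 DAP, up to 8 of the largest called changes each way per test, similar or neighbouring members, the 3 highest in the embryo, and those beside the limit. Names came from RefSeq (14444 of 38300 genes matched, 103 of 150 members); sequences, coordinates and role classes were not used here. Lists were matched by symbol only. A photosynthesis list of 1 gene was too low to test, and of 5 embryo sac genes 0 were called from 2 to 3 DAP.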

Additional observations from a re-analysis of the deposited data

How the results depend on the processing

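Of the 150 members, 122 to 145 were chosen again without all replicate 1 libraries (122), with plain CPM (124), with a score pseudocount of 5 (125) or 0.25 (145), and 106 with a minimum of 10 CPM; leaving out 1 library kept 128 to 147. From 3 to 4 DAP, the count of members higher (12) was 6 with a pseudocount of 0.25, 21 with 5, 25 with plain CPM, 5 with only the compared groups and 5 in edgeR, and 1 to 11 without 1 library, and no member was called lower (0) in any of these. Over all genes, higher and lower counts were 904 and 124 with plain CPM, 328 and 65 with only the compared groups, and 863 and 711 in DESeq2; 581 were lower without all replicate 1 libraries, and 155 to 447 higher and 46 to 224 lower without 1 library. In embryo against endosperm, members higher (13) were 6 with a pseudocount of 0.25, 8 with only the compared groups, 5 in edgeR and 6 to 14 without 1 library, members lower 70 to 78 without 1 library; over all genes 2390 were higher with a 5 CPM filter, and 2854 to 3687 higher and 2464 to 3024 lower without 1 library. From 2 to 3 DAP, higher and lower counts over all genes were 242 and 124 with only the compared groups, 1281 and 807 in DESeq2, 145 lower with plain CPM, and 251 to 545 higher and 108 to 162 lower without 1 library; list genes higher were 14 with plain CPM, 20 in DESeq2 and 5 to 15 without 1 library, and list genes lower were 0 with a pseudocount of 5 and 2 without 1 library. With the replicate block, which pairs libraries by number, all genes higher and lower were 1150 and 1589 from 3 to 4 DAP, 5445 and 5529 in embryo against endosperm, and 1491 and 933 from 2 to 3 DAP; members higher were 31 from 3 to 4 DAP, members were 17 higher and 101 lower in the embryo, and list genes 17 higher and 4 lower from 2 to 3 DAP. Which direction held more calls over all genes did change: from 3 to 4 DAP lower calls outnumbered higher ones with the block and without all replicate 1 libraries (543 higher), and in embryo against endosperm with the block, the 5 CPM filter (2453 lower) and quantile normalization (3797 higher and 3841 lower). With fewer samples or genes tested the counts change by construction, and otherwise the cause was not tested. The shallowest libraries, replicate 1 at 1 DAP and of the embryo, limit values below 1 CPM most.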
